A study of Mus musculus with 14 samples.

Results

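Expression of 50 genes of the Wnt pathway was examined in mouse embryonic stem cells that were differentiated toward neural cells in culture, with and without a pulse of the Hedgehog effector GLI1. The genes were a given list of 14 ligands, 12 receptors and co-receptors, 6 R-spondins and R-spondin receptors, 9 secreted inhibitors, and 9 feedback genes and TCF/LEF factors. They were found by Entrez identifier and mouse symbol. Of the 50 genes, 42 had a value among the 15108 genes of the authors' deposited table for day 5 (D5), and 45 had one among the 15744 genes of the table for day 10 (D10). There were 40 with a value on both days. Wnt8b, Lgr6 and Wif1 were not analysed here on either day. Sfrp5 and Wnt8a had a value at D5 only, and Wnt6, Rspo2, Dkk2, Notum and Sp5 at D10 only.

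All 14 libraries came from the line GLI1-FTA in the A2Lox.cre strain, in which a GLI1 transgene is turned on with doxycycline. The D5 groups were 4 GLI1 OE libraries, given 500 ng/ml doxycycline for 48 h from day 3 to day 5, and 4 untreated control libraries, both labelled as neural progenitor cells. The D10 groups were 3 GLI1 OE libraries, treated alike and washed before differentiation went on, and 3 untreated control libraries, both labelled as immature neurons. The control cells carried the transgene but received no drug, so effects of doxycycline and of GLI1 cannot be told apart. All cells came from 1 line, and no label states that replicates came from separate cultures, so the p-values measure only the spread between these libraries, which may be technical. The authors deposited 1 comparison of induced with control libraries per day, and no value per library or total count was used here. The depth per library is therefore unknown, and the overlap of groups could not be examined. Fewer cells of a type and less RNA per cell cannot be told apart in such bulk samples.

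Wnt proteins are secreted, lipid-modified signals that bind Frizzled receptors together with the co-receptors Lrp5 or Lrp6. In the canonical branch this stabilises beta-catenin, which enters the nucleus and acts through TCF/LEF factors, while ligands such as Wnt5a and Wnt11 are best known for signalling without beta-catenin, in planar polarity and cell movement. R-spondins, bound by Lgr receptors, raise the sensitivity of cells to Wnt by removing the ubiquitin ligases Rnf43 and Znrf3 from Frizzled. In the spinal cord, Wnt1 and Wnt3a are made by the roof plate, the dorsal midline, while Hedgehog is made by the floor plate, the ventral midline.

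Among the ligands that passed an adjusted p of 0.05 at D5, Wnt5b had the only rise and Wnt11 the largest fall. Promoters of Wnt5b and Wnt11 are shown because they hold the TCF/LEF motif searched and because the genes moved in opposite directions. A further Wnt5b promoter, which starts elsewhere and is rich in CpG, is shown because the deposited values are per gene and do not say which start was used. The same limit holds for Wnt11. Another Wnt5b promoter (chr6:119467162-119467461) and another Wnt11 promoter (chr7:98838595-98838894) were searched, hold no match and are not printed. The sequences are RefSeq's, build GRCm38.p6, from 250 bases before to 50 after the annotated start, 5′ to 3′ on the gene's own strand. Capitals mark CTTTGAT or its reverse complement ATCAAAG.
Wnt5b, chr6:119449337-119449636, minus strand: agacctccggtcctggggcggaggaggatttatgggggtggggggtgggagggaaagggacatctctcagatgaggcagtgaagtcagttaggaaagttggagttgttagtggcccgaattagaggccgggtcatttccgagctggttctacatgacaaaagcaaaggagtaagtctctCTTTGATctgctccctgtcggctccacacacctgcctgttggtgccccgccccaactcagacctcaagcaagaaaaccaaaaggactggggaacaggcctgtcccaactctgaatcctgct
Wnt5b, chr6:119544298-119544597, minus strand: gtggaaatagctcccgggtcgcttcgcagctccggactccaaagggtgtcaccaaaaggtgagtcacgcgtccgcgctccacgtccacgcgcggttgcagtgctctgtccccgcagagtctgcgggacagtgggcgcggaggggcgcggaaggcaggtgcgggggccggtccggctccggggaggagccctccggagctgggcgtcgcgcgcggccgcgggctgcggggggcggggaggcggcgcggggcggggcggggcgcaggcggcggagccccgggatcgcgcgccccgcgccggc
Wnt11, chr7:98834862-98835161, plus strand: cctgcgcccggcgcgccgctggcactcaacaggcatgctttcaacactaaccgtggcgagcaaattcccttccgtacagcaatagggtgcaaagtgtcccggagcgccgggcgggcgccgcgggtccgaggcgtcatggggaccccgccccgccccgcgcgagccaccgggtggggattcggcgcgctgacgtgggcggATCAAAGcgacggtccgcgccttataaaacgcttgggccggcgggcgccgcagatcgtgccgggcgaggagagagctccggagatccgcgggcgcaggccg
The motif begins at position -71 from the start in the first of these and at -51 in Wnt11. The promoters had 7, 47 and 45 CpG dinucleotides, in the order printed, against a median of 7 over the table. CTTTGAT, on either strand, was found in 2 of the 12 promoters that the table holds for genes that changed at D5, in 3 of 43 promoters of the whole gene list (34 genes matched) and in 1225 of all 32851 promoters (3.73%). The GLI motif GACCACCCA, on either strand, was in 0 of these 12, in 0 of 43 and in 83 of 32851 (0.253%). The 12 promoters belong to 6 of the 10 genes that changed (Frzb, Fzd10, Lef1, Sfrp5, Wnt11 and Wnt5b), and 4 of them, a pair of which overlap, are those of Lef1. For Wnt5a, Wnt7b, Lgr5 and Sfrp1 no promoter was searched. These windows hold no distal elements, and a match or its absence is a description of the letters only.

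The first comparison asks how Wnt pathway genes respond while GLI1 is induced. For Gli1 itself, the authors' deposited table for D5 gives a log2 fold change of 4.79 (adjusted p = 1.12e-81), or 27.8-fold more in GLI1-induced than in control cells. The table does not separate the transgene from the endogenous gene. Of the 42 Wnt pathway genes measured at D5, 3 rose and 7 fell at an adjusted p under 0.05 in the authors' deposited table. That is 23.8% of them, against 4.44% of all genes of the table. The risers were 7.14% of the list, against 2.34% of all genes, and the fallers 16.7%, against 2.1%. The median log2 fold change of the 42 genes was -0.032, and that of all genes was 0.0015. Values below 0 were found for 23 of the 42 genes (54.8%), against 49.5% of all genes. An unadjusted p under 0.05 was reached by 21 genes, or 50%, against 10.7% of all genes. Of these, 8 were higher and 13 lower in induced cells, against 4.83% and 5.83% of all genes. The distribution of the genes over expression level and size of change is shown in the plot of all genes at D5.

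**Figure D1:**
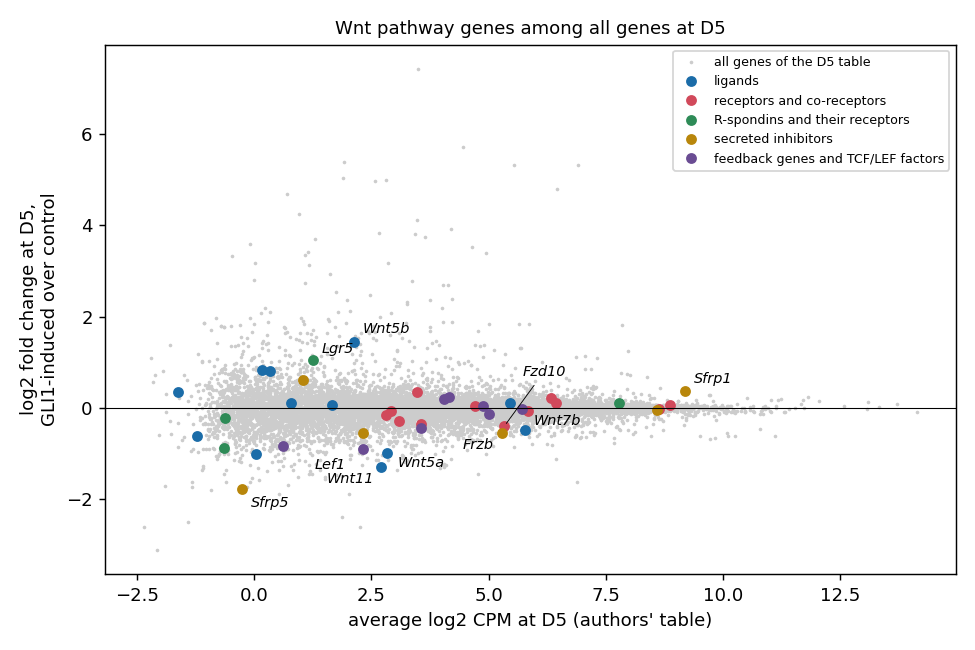
Log2 fold change at D5 (GLI1-induced over control) against average log2 CPM, from the authors' deposited table. Grey points are all 15108 genes and coloured points the 42 Wnt pathway genes by role, with the 10 that passed an adjusted p of 0.05 named. Wnt5b and Lgr5 lie above the other coloured points and Sfrp5 lies below them.

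Among the ligands at D5, Wnt5b rose while its close relative Wnt5a fell. Wnt5b (Entrez 22419) had a log2 fold change of 1.45 in the authors' deposited table, which is 2.74-fold higher in induced cells (adjusted p = 5.15e-09). The standard error (SE) implied by that p is 0.22. Group levels in CPM (reads of a gene as a share of the library, scaled to a common total) can be derived from the fold change and the average, and they were 6.39 CPM in induced and 2.33 CPM in control cells for Wnt5b. Wnt5a (Entrez 22418) had a log2 fold change of -0.98 in the authors' deposited table, 1.98-fold lower in induced cells (adjusted p = 1.65e-05, implied SE 0.19), with derived levels of 4.77 CPM in induced and 9.44 CPM in control cells. Per kilobase of exon, the derived level of Wnt5b was 2.41 CPM in induced and 0.879 CPM in control cells, and that of Wnt5a was 0.679 CPM in induced and 1.34 CPM in control cells. Wnt5b thus had the higher level per length in induced cells and Wnt5a in control cells. Such levels are approximate for low genes, and no spread over libraries can be given for them.

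Wnt11, another ligand of the non-canonical branch, also fell. Its log2 fold change was -1.29 in the authors' deposited table, 2.44-fold lower in induced cells (adjusted p = 0.000192, implied SE 0.28), and its derived level was 3.78 CPM in induced and 9.22 CPM in control cells. Wnt7b, which can act through beta-catenin, fell too, with a log2 fold change of -0.48 in the authors' deposited table (adjusted p = 0.0253, implied SE 0.14) and derived levels of 45.9 CPM in induced and 64.0 CPM in control cells. Wnt7a, the relative of Wnt7b, did not pass, with 0.11 in the authors' deposited table. Exons of Wnt11 and Wnt7b overlap genes annotated on the opposite strand (Gm8398 and AU022754). The same holds for Lef1 (Gm43352), Rspo3, Axin2, Sfrp2, Notum, Fzd5, Fzd6 and Tcf7l1. The labels call the reads stranded, but the library kit they name usually does not keep strand, and whether reads were counted by strand is not given in these sources. Reads of these genes and of their overlapping partners may therefore not be told apart.

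The other ligands did not pass at D5. Wnt4 at 0.82, Wnt2b at 0.82 and the roof plate ligand Wnt3a at -1.01 in the authors' deposited table reached an unadjusted p under 0.05 (0.00885, 0.0174 and 0.0266), with adjusted p values of 0.145, 0.234 and 0.312. Wnt1 at 0.36 and Wnt8a at -0.62 were scarce in the authors' deposited table, with an average log2 CPM of -1.64 and -1.23, and their implied SE was 0.79 and 0.67. Wnt3 at 0.11 and Wnt9a at 0.07 complete the ligands of the authors' deposited table.

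Fzd10 was the receptor gene that passed at D5. Of 12 Frizzled and co-receptor genes, all with a value, 1 fell and 0 rose by the test of the authors' deposited table. By that test 2.1% of all genes fell and 2.34% rose. The median log2 fold change of the 12 was -0.036. Fzd10, a Frizzled expressed in the dorsal neural tube, stood at -0.40 in the authors' deposited table (adjusted p = 0.00311, implied SE 0.10). Its derived level was 34.8 CPM in induced and 45.9 CPM in control cells. Fzd2 at 0.22, Fzd9 at 0.34 and Fzd4 at -0.34 in the authors' deposited table had an unadjusted p of 0.0247, 0.0242 and 0.0403 but missed the threshold. The remaining receptors, Fzd1, Fzd3, Fzd5, Fzd6, Fzd7, Fzd8, Lrp5 and Lrp6, lay between -0.28 and 0.11 in the authors' deposited table. For Fzd7, the Frizzled gene with the highest level per length in these cultures, the 95% interval from the implied SE ran from -0.22 to 0.18, and for Lrp6 from -0.07 to 0.30.

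Of the R-spondin receptors, Lgr5 rose at D5 and Lgr4 did not pass. Lgr5, which is also a widely used Wnt target and stem cell marker, had a log2 fold change of 1.05 in the authors' deposited table (adjusted p = 0.00156, implied SE 0.25) and was 2.07-fold higher in induced cells. Its derived level was low, with 3.21 CPM in induced and 1.55 CPM in control cells. Lgr4 stood at 0.10 in the authors' deposited table, with derived levels of 227 CPM in induced and 212 CPM in control cells. The R-spondins Rspo3 at -0.87 (unadjusted p = 0.0326, adjusted p = 0.359) and Rspo1 at -0.23 did not pass, and both had an average log2 CPM below 0 in the authors' deposited table.

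The secreted inhibitors split at D5. Sfrp5, a Frizzled-related decoy of anterior endoderm in the mouse, had the largest fall of all Wnt pathway genes measured, with a log2 fold change of -1.76 in the authors' deposited table (adjusted p = 0.00026, implied SE 0.38). It is also scarce, with derived levels of 0.379 CPM in induced and 1.28 CPM in control cells. Frzb, another Frizzled-related decoy, fell by 0.55 on the log2 scale in the authors' deposited table (adjusted p = 1.44e-06, implied SE 0.10), to 31.7 CPM in induced cells, against 46.4 CPM in control cells. Sfrp1, a more abundant member of the same family, rose by 0.38 on that scale in the authors' deposited table (adjusted p = 0.0145, implied SE 0.11), with derived levels of 662 CPM in induced and 508 CPM in control cells. Sfrp2 stood at -0.04 in the authors' deposited table, with a 95% interval from -0.27 to 0.19. Among the Dickkopf genes, whose founding member Dkk1 binds Lrp5 and Lrp6, Dkk1 at -0.55 (adjusted p = 0.117) and Dkk3 at 0.62 (adjusted p = 0.212) had an unadjusted p of 0.00656 and 0.0152 in the authors' deposited table.

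Of 8 measured feedback genes and TCF/LEF factors, 1 fell and 0 rose at D5, with a median log2 fold change of -0.074. Among all genes 2.1% fell and 2.34% rose. Lef1, a nuclear partner of beta-catenin that is itself a Wnt target, fell by 0.89 on the log2 scale in the authors' deposited table (adjusted p = 0.000565, implied SE 0.20), to 3.52 CPM in induced cells, against 6.52 CPM in control cells. Axin2, the scaffold of the beta-catenin destruction complex and the most general Wnt target, stood at -0.13 in the authors' deposited table, with a 95% interval from -0.33 to 0.08 and an adjusted p of 0.938. The ubiquitin ligase gene Rnf43 at -0.82 (adjusted p = 0.0799) and Tcf7 at -0.44 (adjusted p = 0.136) had an unadjusted p of 0.00398 and 0.00814 in the authors' deposited table. Nkd1 at 0.24, Znrf3 at 0.20, Tcf7l2 at 0.05 and Tcf7l1 at -0.02 complete this class in the authors' deposited table. The interval for every measured gene is shown in the plot of D5 changes by role.

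**Figure D2:**
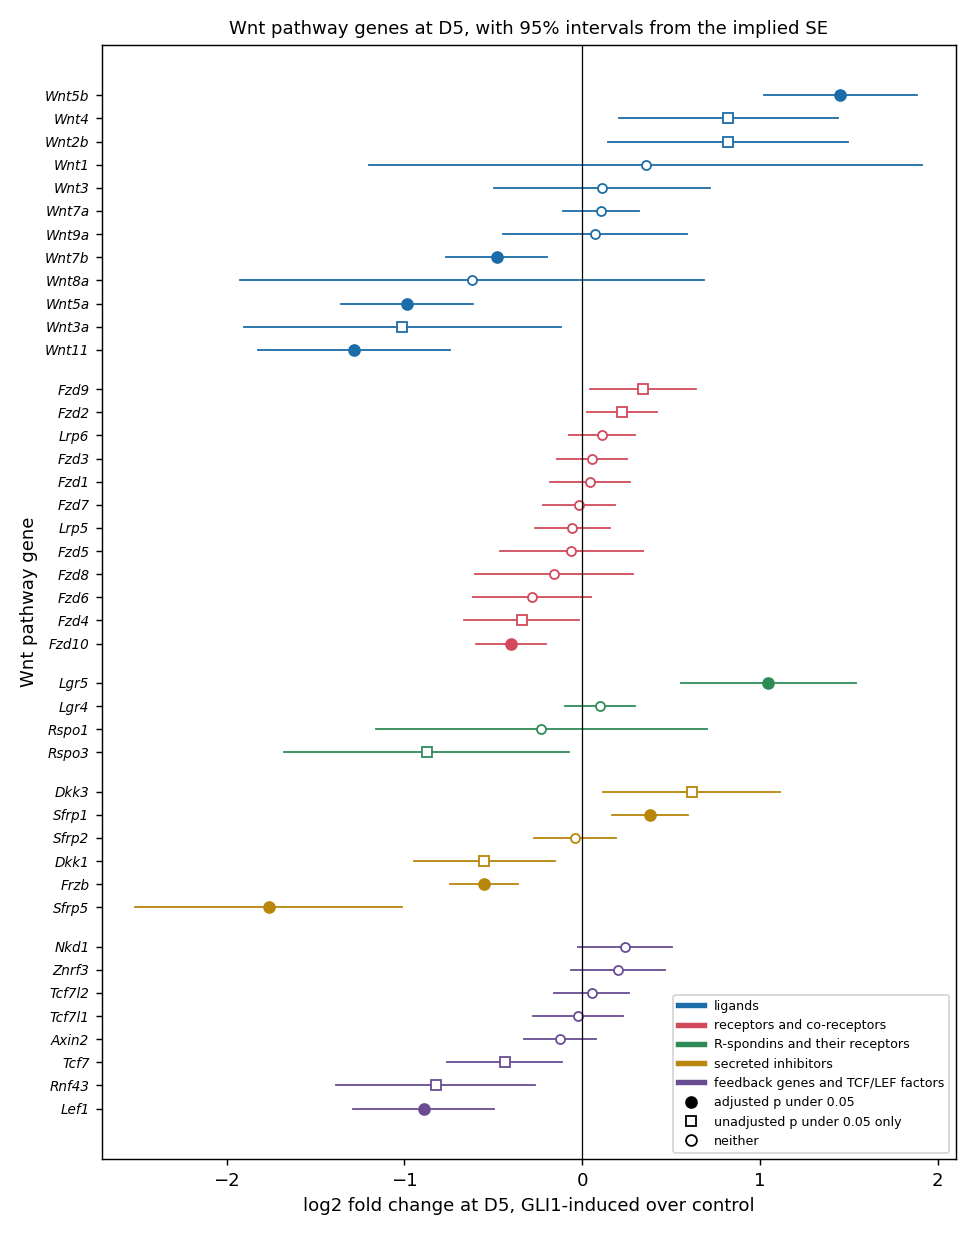
Log2 fold change at D5 (GLI1-induced over control) of the 42 Wnt pathway genes with a value, by role, from the authors' deposited table, with 95% intervals from the implied SE. Filled points passed an adjusted p of 0.05, and open squares reached an unadjusted p under 0.05 only. Each role has at least 1 filled point, and in the ligands and the secreted inhibitors filled points lie on both sides of 0.

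A list of 92 other genes of the pathway was read beside these. Of the 74 with a value at D5, 8 rose and 3 fell by the test of the authors' deposited table. Over all genes 2.34% rose and 2.1% fell. The median log2 fold change of the 74 was 0.033. Porcn, the enzyme that attaches the lipid to Wnt ligands, fell by 0.67 on the log2 scale in the authors' deposited table (adjusted p = 0.00314). Trabd2b, which encodes a protease that inactivates Wnt, rose by 0.56, and Shisa2, of a family that holds Frizzled back inside the cell in Xenopus, rose by 0.67 in the authors' deposited table, while Draxin, a guidance protein and Wnt antagonist, fell by 0.64. The planar polarity cadherins Celsr1 and Celsr2 rose by 0.38 and 0.34, the glypican Gpc3 by 0.43 and the corepressor gene Tle1 by 0.34 in the authors' deposited table. Of 14 measured genes listed as targets of beta-catenin, 2 rose and 1 fell. The risers were the cyclin gene Ccnd1 at 0.67 and T (brachyury) at 1.85, and the retinoic acid hydroxylase gene Cyp26a1 stood lower at -1.10 in the authors' deposited table. Of 24 measured transducers, among them the Dishevelled, Gsk3 and Apc genes and Ctnnb1, 1 passed, namely Tle1. That is near the share of all genes that passed, 4.44%.

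Markers of several cell types moved with these genes at D5. For comparison, 2.34% of all genes rose and 2.1% fell at an adjusted p under 0.05. At an unadjusted p under 0.05 the shares were 4.83% and 5.83%. Roof plate and dorsal markers fell in 3 of 8 measured cases (Zic1, Pax3 and Msx2), and the authors' deposited table has all 8 below 0. Their summed derived level was 44.4 CPM in induced and 72.5 CPM in control cells. Floor plate and ventral markers rose in 8 of 9 cases (Foxa2, Shh, Spon1, Nkx2-2, Nkx2-9, Nkx6-1, Nkx6-2 and Ntn1), with a sum of 551 CPM in induced and 247 CPM in control cells. Endoderm markers had 2 rises (Foxa1 and Foxa2, which the floor plate also expresses) and 2 falls (Gata4 at -0.78 and Gata6 at -0.67 in the authors' deposited table) among 9. Their sum was 360 CPM in induced and 433 CPM in control cells. At an unadjusted p under 0.05, 4 endoderm markers were higher, among them Afp at 0.86 and Ttr at 0.54. Another 4 were lower at that p, among them Sox17 at -0.65 and Krt18 at -0.32. Pluripotency markers fell in 4 of 8 cases (Dppa5a, Tdh, Lefty2 and Dnmt3b), with a sum of 108 CPM in induced and 151 CPM in control cells. Most of that sum was Dnmt3b, with an average log2 CPM of 6.72, against 3.59 for Dppa5a, the next highest. Mesoderm markers had 2 rises (T and Foxf1) and 1 fall (Pdgfra) among 4, with sums of 66 CPM in induced and 107 CPM in control cells. Pdgfra made up most of these sums, with an average log2 CPM of 6.35, against -0.01 for T, 0.95 for Foxf1 and 0.80 for Kdr. Neuron markers fell in 4 of 10 cases (Tubb3, Stmn2, Nefl and Nefm), with sums of 788 CPM in induced and 1070 CPM in control cells. Of the smaller lists, 1 of 5 neural crest markers fell (Tfap2b, with sums of 43.9 CPM in induced and 45 CPM in control cells), 1 of 4 forebrain markers (Lhx2, with 5.68 CPM in induced and 9.61 CPM in control cells) and 2 of 7 hindbrain and cord markers (Hoxa3 and Egr2, with 74.3 CPM in induced and 97.1 CPM in control cells). The neural progenitor markers that define the labelled type were all measured, with 0 of 10 passing and sums of 2170 CPM in induced and 2180 CPM in control cells. Other lists than the dorsal one also lay mostly below 0, with 7 of 8 pluripotency, 6 of 7 hindbrain and cord and 4 of 4 forebrain markers. All 9 floor plate and ventral markers were above 0. The part of these cell types in the changes of the Wnt genes was not tested.

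The second comparison asks what was left of these changes at D10, after washout. For Gli1 the authors' deposited table for D10 gives an adjusted p of 0.780, with a level 1.48-fold that of control cells (log2 fold change 0.57). In the authors' test 0 of the 45 Wnt pathway genes measured at D10 passed, where 0.0826% of all genes did. At an unadjusted p under 0.05 there were 6 of 45, or 13.3%, against 1.53% of all genes in the authors' deposited table, and all 6 were lower in induced cells, where 0.883% of all genes were higher and 0.648% lower at that p. With p-values rescaled so that, among genes of like level, the median z has the size of a standard normal's, 2 passed, against 0.756% of all genes. These were Wnt1, which was lower (0.26% of all genes), and Fzd3, which was higher at 0.21 in the authors' deposited table (0.495% of all genes). Of the 45 genes 30 (66.7%) were below 0 in that table, against 48.9% of all genes, and their median was -0.068, against 0.0027 over all genes.

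Those 6 genes were the R-spondins Rspo2, Rspo1 and Rspo3, the ligands Wnt1 and Wnt3 and the receptor Fzd10. Rspo2 had a log2 fold change of -0.72 in the authors' deposited table (unadjusted p = 0.0140, implied SE 0.29), with derived levels of 1.07 CPM in induced and 1.76 CPM in control cells. Rspo1 stood at -0.67 in the authors' deposited table (unadjusted p = 0.0185, implied SE 0.29), with 2.70 CPM in induced and 4.30 CPM in control cells. Rspo3 stood at -0.63 in the authors' deposited table (unadjusted p = 0.0222, implied SE 0.28), with 2.89 CPM in induced and 4.48 CPM in control cells. The 3 R-spondin genes, all that had a value, were thus all on the lower side, and none passed over all genes.

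Wnt1, the roof plate and midbrain ligand, stood at -0.64 on the log2 scale in the authors' deposited table (unadjusted p = 0.0118, adjusted p = 1.0, implied SE 0.25), with derived levels of 6.38 CPM in induced and 9.95 CPM in control cells. Wnt3 stood at -0.53 in the authors' deposited table (unadjusted p = 0.0130, implied SE 0.21), with 3.44 CPM in induced and 4.96 CPM in control cells. Fzd10 stood at -0.34 in the authors' deposited table (unadjusted p = 0.0499, implied SE 0.17), with 11.98 CPM in induced and 15.2 CPM in control cells. Wnt3a, which shares the roof plate with Wnt1, stood at -0.40 in the authors' deposited table with an implied SE of 0.43 and did not reach that p. The plot of D10 changes by role shows these genes together on the left of 0.

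**Figure D3:**
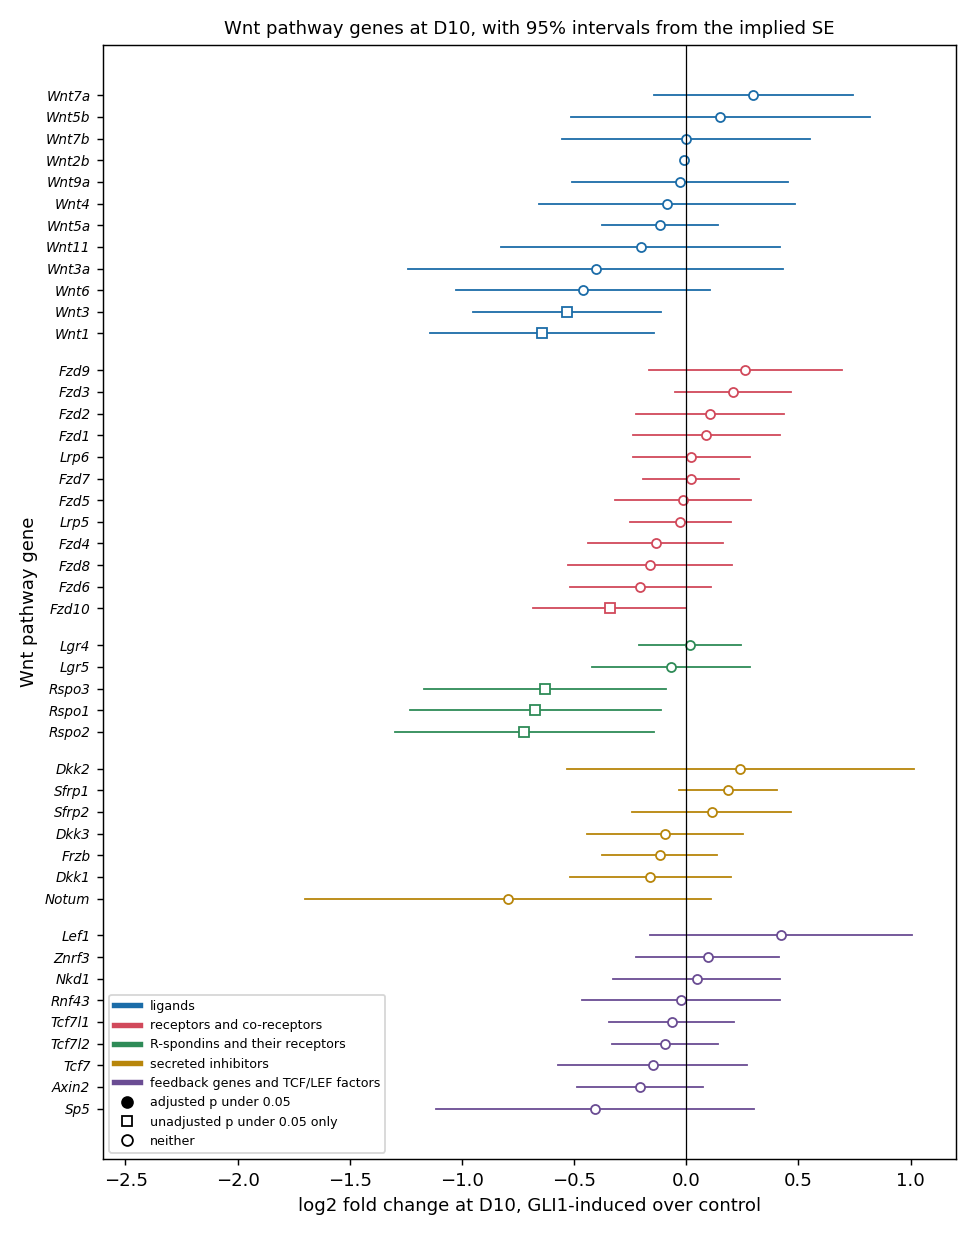
Log2 fold change at D10 (GLI1-induced over control) of the 45 Wnt pathway genes with a value, by role, from the authors' deposited table, with 95% intervals from the implied SE (none can be derived for Wnt2b). No point passed an adjusted p of 0.05. The 6 open squares, at -0.72 to -0.34, reached an unadjusted p under 0.05.

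Dorsal markers were on the lower side at D10 too. The authors' deposited table has 9 of 10 measured roof plate and dorsal markers below 0. Of these markers 0 passed, 4 had an unadjusted p under 0.05 and 2 passed with rescaled p. Among all genes, 0.648% were lower at that unadjusted p and 0.26% with rescaled p. Summed derived levels of the dorsal markers were 83.3 CPM in induced and 108 CPM in control cells. Examples in the authors' deposited table were Msx3 at -0.72, Zic1 at -0.55, Lmx1a at -0.43 and Pax3 at -0.36, which are those 4. Among the floor plate and ventral markers, Shh, Spon1 and Ntn1 rose by 1.41, 0.95 and 0.93 on the log2 scale in the authors' deposited table. In the same list Nkx2-2 at 0.83, Nkx6-1 at 0.51, Nkx2-9 at 0.36, Nkx6-2 at 0.35, Foxa2 at 0.04 and Olig2 at -0.45 did not pass. Of the neuron markers that define the labelled type 10 of 10 were measured and 0 passed, with sums of 2350 CPM in induced and 2290 CPM in control cells. Endoderm markers summed to 1430 CPM in induced and 1480 CPM in control cells, with 0 of 10 passing at either p, so transcripts of this lineage were present in both groups. In the other marker lists 0 genes passed in the authors' test at D10, and 1 each of the neural progenitor (higher), neural crest (lower) and pluripotency markers (higher) had an unadjusted p under 0.05. Neural progenitor markers summed to 1530 CPM in induced and 1400 CPM in control cells, and 2 of 10 were higher with rescaled p. Neural crest markers summed to 61.3 CPM in induced and 71.8 CPM in control cells, and 1 of 7 was lower with rescaled p. Among all genes, 0.883% were higher at an unadjusted p under 0.05 and 0.495% with rescaled p. A lean to one side was not particular to the dorsal list. Values were below 0 for 8 of 10 endoderm and 6 of 7 neural crest markers. They were above 0 for 10 of 10 neural progenitor and 5 of 6 pluripotency markers. The part of dorsal cell number in the values of the Wnt genes was not tested.

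The remaining genes gave values without a call at D10. The other ligands lay between -0.46 (Wnt6) and 0.30 (Wnt7a) in the authors' deposited table, and Wnt5b, Wnt5a and Wnt11 stood at 0.15, -0.12 and -0.20. The other receptors lay between -0.21 and 0.26 in the authors' deposited table. Lgr5 and Lgr4 stood at -0.07 and 0.02. The inhibitors ran from -0.80 (Notum, a deacylase that removes the lipid from Wnt and is itself a Wnt target, unadjusted p = 0.0848) to 0.24 (Dkk2), and the feedback genes and TCF/LEF factors from -0.41 (Sp5) to 0.42 (Lef1) in the authors' deposited table. Axin2 stood at -0.21 in the authors' deposited table, with a 95% interval from -0.49 to 0.08. Of 77 other pathway genes measured at D10, 0 passed in the authors' test, against 0.0826% of all genes. An unadjusted p under 0.05 was found for 2 (Ccnd1 at 0.38 and Trabd2b at 0.44, both higher in the authors' deposited table), against 1.53% of all genes. With rescaled p 3 passed, against 0.756% of all genes.

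The third comparison sets the D10 response against that at D5. Of the 10 genes that changed at D5, 9 had a value at D10, and all 9 were smaller in size there. The difference of the log2 fold changes was tested from the implied SEs over 14792 genes, of which 1.24% passed. It passed for 3 of the 40 Wnt pathway genes with values on both days (7.5%), namely Lef1, Lgr5 and Wnt5a. All 3 were closer to 0 at D10, and 1.21% of all genes both passed and were closer to 0 at D10. The 10 genes were picked for their size at D5, so their smaller size at D10 is a description.

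For Lef1 the log2 fold change was 0.42 at D10 and -0.89 at D5 in the authors' deposited tables, a difference of 1.31 (SE 0.36, adjusted p = 0.025). Its sign turned, but the unadjusted p at D10 was 0.157 in the authors' deposited table. For Lgr5 the values were -0.07 at D10 and 1.05 at D5 in the authors' deposited tables, a difference of -1.12 (SE 0.31, adjusted p = 0.0280). For Wnt5a they were -0.12 at D10 and -0.98 at D5 in the authors' deposited tables, a difference of 0.87 (SE 0.23, adjusted p = 0.0188). None of the 3 passed with Holm's adjustment or at an adjusted p under 0.01.

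Wnt5b, the largest riser at D5, missed the threshold in this test. It stood at 0.15 at D10 and 1.45 at D5 in the authors' deposited tables, a difference of -1.30 (SE 0.40, adjusted p = 0.0894). Wnt11 stood at -0.20 at D10 and -1.29 at D5 in the authors' deposited tables, a difference of 1.08 (SE 0.42, adjusted p = 0.393). Frzb stood at -0.12 at D10 and -0.55 at D5 in the authors' deposited tables, a difference of 0.43 (SE 0.16, adjusted p = 0.339). Both missed the threshold too. Fzd10 stood at -0.34 at D10 and -0.40 at D5 in the authors' deposited tables, and the difference was 0.06 (SE 0.20). Sfrp1 stood at 0.19 at D10 and 0.38 at D5 in the authors' deposited tables (difference -0.20, SE 0.16, adjusted p = 1.0).

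**Figure D4:**
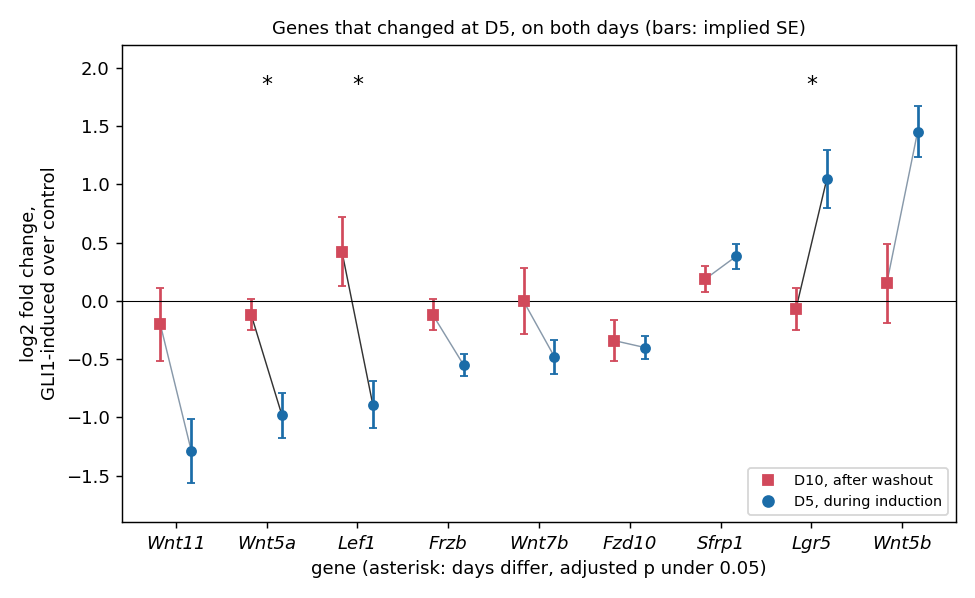
Log2 fold change (GLI1-induced over control) of the 9 Wnt pathway genes that passed at D5 and have a value at D10, with D10 (squares) left of D5 (circles) and bars of 1 implied SE, from the authors' deposited tables. An asterisk marks an adjusted p of the difference under 0.05. All 9 squares lie closer to 0 than their circles, and the smallest shift is that of Fzd10.

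The levels of many of these genes also differed between the days in untreated cells. Derived control levels were compared within each gene, without a test, since the days were normalised separately and are different libraries. Of the 40 genes with both values, 14 were at least 2-fold higher in D10 than in D5 control cells (35% of them, against 12.4% of all shared genes), and 7 at least 2-fold lower (17.5%, against 5.98%). The largest increase was that of Wnt1, with a control level of 9.95 CPM at D10 and 0.282 CPM at D5, 35.3-fold higher at D10. That ratio rests on a D5 average log2 CPM of -1.64, near the low end of the table. Rspo1 was 6.13-fold, Rspo3 5.39-fold, Wnt5a 5.28-fold, Dkk3 5.08-fold, Fzd5 4.97-fold, Lgr5 4.94-fold and Rnf43 4.90-fold higher at D10. The ratios of Rspo1 and Rspo3 also rest on low D5 averages, with a log2 CPM of -0.62 and -0.64. Dkk3, Lgr5 and Rnf43 were low too, at 1.63, 1.55 and 1.97 CPM in D5 control cells. Of the 6 genes with an unadjusted p under 0.05 at D10, Wnt1, Wnt3 (2.99-fold), Rspo1 and Rspo3 had a higher control level at D10 than at D5, Fzd10 was 3.03-fold lower at D10, and Rspo2 has no D5 value.

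Other control levels were lower at D10. The control level of Sfrp2 was 4.24-fold lower at D10 than at D5, that of Sfrp1 3.76-fold, Lef1 3.67-fold, Wnt7a 2.96-fold, Fzd3 2.51-fold and Tcf7 2.39-fold. The TCF/LEF gene Tcf7l2 went the other way, at 1.61-fold higher at D10. The related decoy gene Frzb, at 1.10-fold higher at D10, differed little. So did Wnt7b and Lgr4, at 1.10-fold and 1.04-fold lower at D10.

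Divided by exon length (kilobases of exon in coding transcripts, GENCODE M21), levels can be set beside each other between genes. At D10 the highest control levels were those of Fzd7 (46.3 CPM per kb), Sfrp2 (46.2), Lgr4 (40.1) and Sfrp1 (30.9). At D5 they were those of Sfrp2 (196 CPM per kb), Sfrp1 (116), Fzd7 (89.0), Lgr4 (41.8) and Fzd3 (36.0). Fzd7 and Sfrp2 at D10 cannot be put in order, as no spread over libraries is available. Among ligands the highest control levels were those of Wnt7b (12.6 CPM per kb) and Wnt5a (7.09) at D10, and of Wnt7b (13.9) and Wnt7a (13.4) at D5. The ligands that passed at D5 besides Wnt7b had lower levels, at 0.879 (Wnt5b), 1.34 (Wnt5a) and 2.55 (Wnt11) CPM per kb in D5 control cells.

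**Figure D5:**
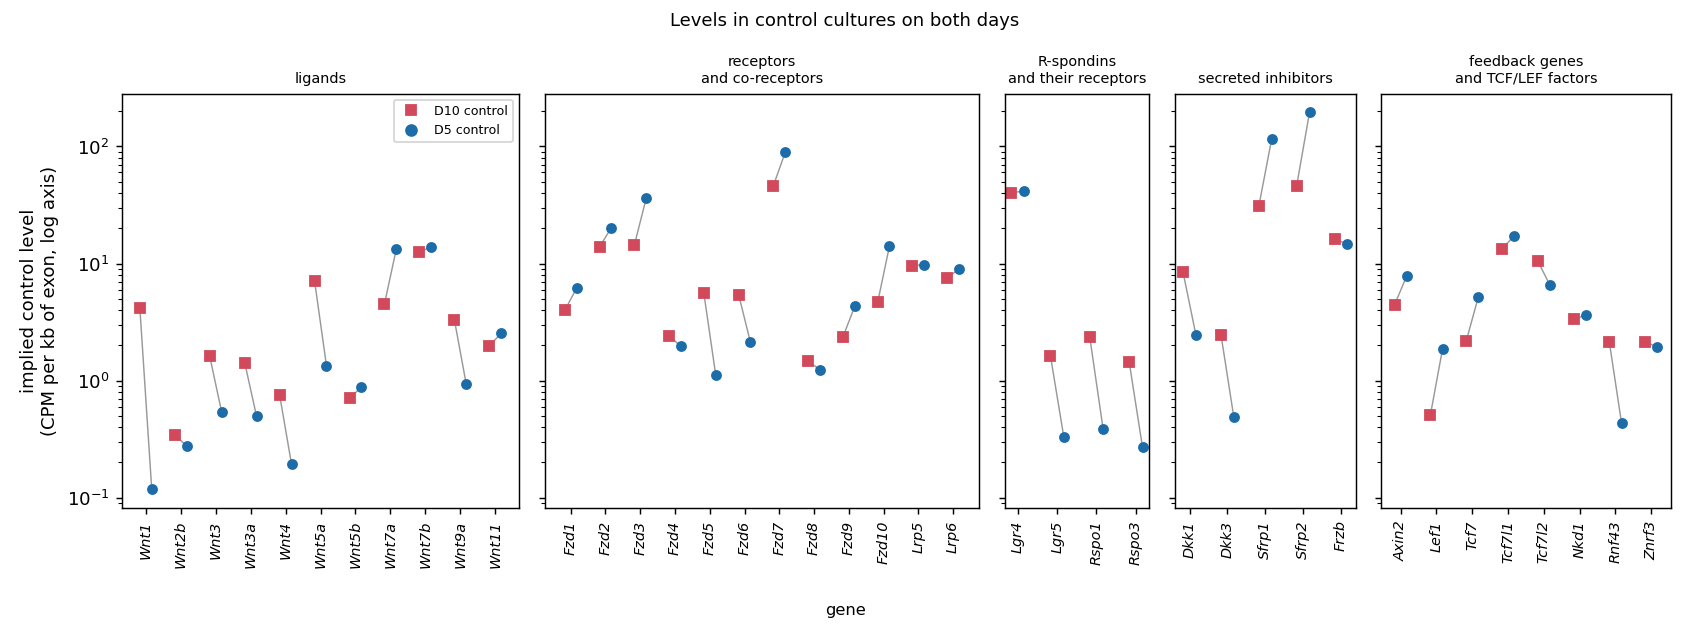
Control level in CPM per kb of exon (log axis), derived from the authors' average log2 CPM and log2 fold change, for the 40 Wnt pathway genes with values on both days, with D10 (squares) left of D5 (circles). No replicate spread is available. Wnt1 shows the largest increase toward D10 (4.18 against 0.119) and Sfrp2 the largest decrease (46.2 against 196).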

How the data were processed

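The deposited files are the authors' own comparisons of GLI1-induced with control libraries, with a table of all genes and one of selected genes per day. Per the labels' protocols, polyadenylated RNA was sequenced as single-end reads described as stranded, though the kit named there usually does not keep strand. Aligner, counter, build and test were not given in the sources used here. Per the file headers, the authors gave a log2 fold change, an average log2 CPM, a p-value and an adjusted p (FDR) per Entrez gene. As a check of the log base, 2 to the power of the average summed over genes to 1001543 (D5) and 1001340 (D10). Base 2 was assumed for the fold change too. The deposited FDR equals a Benjamini-Hochberg adjustment within 2.72e-06 and 3.41e-05. Selected genes (671 and 13) are those with an FDR under 0.05.

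Symbols came from the selected tables and RefSeq (GRCm38.p6), which matched 94.6% of identifiers on either day. The implied SE is the size of the log2 fold change over that of z, from the p, read as two-sided with a normal reference. It is no replicate SD, and it could not be derived for 227 genes at D5 and 288 at D10. Group levels take 2 to the average as the mean of both groups. The difference between days was tested with a normal reference and Benjamini-Hochberg adjustment over 14792 genes, and genes without an SE were entered as no difference. The procedure was tested on simulated data with normal errors drawn from the implied SEs, which cannot show whether those SEs are right. For rescaled p, genes were ordered by average log2 CPM in bins of about 500, and z was divided per bin so that its median size is that of a standard normal. The genes and lists were chosen with earlier results of these data known, and so no p adjusted over a list is given. Named in full are genes with an adjusted or unadjusted p under 0.05 on a day, or a difference between days; others are given by class. Of the other pathway genes and markers, those called are named, with the exception given below, and further ones were chosen after their values were seen. No depth per library is known. Analyses used Python 3.11.15, pandas 2.3.3, scipy 1.17.1 and matplotlib 3.10.9. The D10 result of 1 listed marker gene is not reported here, and so no count or sum over its list is given for that day.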

Additional observations from a re-analysis of the deposited data

Results flagged for a closer look

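The difference between induced (doxycycline-treated) and control cells was not the same on both days for Lef1, Lgr5 and Wnt5a. The log2 fold change at D10 minus that at D5 was 1.31 for Lef1, -1.12 for Lgr5 and 0.866 for Wnt5a, each at an adjusted p under 0.05 in the test from implied SEs. With the threshold at 0.01 none of these differences passed. Lgr5 has no value without genes whose z is under 0.5 in size, since its D10 z is in that range. The adjusted p of Lef1 and Wnt5a was then 0.00883 and 0.00673. That filter uses the same z values as the test and leaves fewer genes to adjust over. These lower values are therefore no added support.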

How the results depend on the processing

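No paired analysis was possible because the deposited values are comparisons and not values per library. For the same reason no replicate could be left out. Of the 10 genes called at D5, 4 passed with a 2-fold minimum (2 lower) and 4 with Holm's adjustment (1 higher and 3 lower, among them Wnt5b). The count at D10 was 0, and 2 with rescaled z, 1 higher and 1 lower. The 3 differences between days became 0 at an adjusted p under 0.01 and 0 with Holm's adjustment. Of the other pathway genes at D5, 11 passed, and 7 did at an adjusted p under 0.01, 2 with a 2-fold minimum and 2 with Holm's adjustment. At D10 3 of them passed with rescaled z, and over both days 18 did. Centring on the median of all genes reused the authors' adjusted p, so it could change no call, and no direction turned. Derived group levels of the Wnt pathway genes moved by at most 1.19-fold when the average was taken on the log2 scale. Those of the marker genes were not checked in this way. The differences were 4 at an adjusted p under 0.1, where Wnt5b was added (0.0894). Alternatives were also read for the genes with an unadjusted p under 0.05 on a day and for the 3 differences. Of these values, 182 kept their side of the threshold and 21 no longer passed. Another 2 newly passed (Rnf43 at D5 with a threshold of 0.1, adjusted p 0.0799, and Wnt1 at D10 with rescaled z, 0.0293). No direction turned, but all alternatives except centring keep the fold change, so under them none could. Stricter rules cannot add a pass and looser ones cannot remove one, so part of this tally was fixed in advance. Sfrp5, with an average log2 CPM of -0.27, drops out with a minimum of 1, and its adjusted p was 0.0627 with Holm's adjustment. Depth limits what can be said of Wnt1, Wnt8a, Rspo1 and Rspo3 at D5, whose average log2 CPM was below 0. How far depth differs between libraries is unknown.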
